A study of Mus musculus with 6 samples.

Results

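The 7 genes described here encode enzymes and receptors linked to the handling of ATP and adenosine outside T cells: Entpd1, Entpd2, Nt5e, Dpp4, Ada, Adora2a and P2rx7. They were taken by gene name from a table of estimated read counts and comprised 28 of its 93480 transcripts and 7 of its 38483 genes. All 7 passed the filter on low counts that left 15121 genes for testing. RNA had been measured by stranded mRNA sequencing in cultured T cells of IL-17A+/+ wild-type and IL-17A-/- knockout mice, with 3 libraries per genotype described as biological replicates and numbered 1 to 3. Both genotypes were on the B10.RIII background, and the age of the mice was not analysed here. In both, CD4+CD62L+ cells were selected from the spleen with an isolation kit and grown for 3 days toward the Th17 state, a helper T cell state named for IL-17A. The medium held IL-6 at 10 ng/ml, IL-23 at the same concentration and TGF-β at 1 ng/ml, with antibodies that block IFN-γ (10 µg/ml) and IL-4 (10 µg/ml). No group was left unpolarised, so what follows compares genotypes within 1 culture condition.

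ATP is kept inside healthy cells and acts as a danger signal once outside, where P2X channels and P2Y receptors sense it. CD39 (Entpd1) strips ATP and ADP down to AMP, its relative Entpd2 acts mainly on ATP, and CD73 (Nt5e) turns AMP into adenosine. Adenosine then raises cyclic AMP in T cells through the receptor encoded by Adora2a, which restrains them, and adenosine deaminase (Ada) ends the signal by making inosine. CD39 and CD73 are known from regulatory T cells, and also from Th17 cells grown with IL-6 and TGF-β.

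The promoters of the genes whose values moved most, and of Entpd1, with transcripts counted from both of its starts, are given first. They can be read beside the counts. Each is the 250 bases before and 50 bases after a RefSeq transcription start on GRCm38.p6, on the strand of the gene, and capitals mark a match to the AP-1 element TGANTCA. Entpd2 is shown at chr2:25395624-25395923 and P2rx7 at chr5:122643677-122643976, both on the plus strand. Entpd1, also on the plus strand, is shown for its upstream start at chr19:40612116-40612415 and its downstream start at chr19:40659520-40659819. A second P2rx7 start is not shown, and its use could not be measured because no listed transcript begins there.
Entpd2: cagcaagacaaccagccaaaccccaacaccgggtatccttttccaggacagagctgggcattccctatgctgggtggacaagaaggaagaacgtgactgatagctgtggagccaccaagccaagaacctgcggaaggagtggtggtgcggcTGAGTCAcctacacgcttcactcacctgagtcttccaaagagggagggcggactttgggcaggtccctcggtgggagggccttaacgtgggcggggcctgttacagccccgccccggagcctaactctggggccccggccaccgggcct
P2rx7: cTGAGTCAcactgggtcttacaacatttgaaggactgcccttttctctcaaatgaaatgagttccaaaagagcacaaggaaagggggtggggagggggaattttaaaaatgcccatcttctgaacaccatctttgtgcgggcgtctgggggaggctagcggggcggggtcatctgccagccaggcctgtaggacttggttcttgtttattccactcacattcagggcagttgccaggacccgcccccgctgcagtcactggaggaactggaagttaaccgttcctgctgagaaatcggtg
Entpd1 upstream: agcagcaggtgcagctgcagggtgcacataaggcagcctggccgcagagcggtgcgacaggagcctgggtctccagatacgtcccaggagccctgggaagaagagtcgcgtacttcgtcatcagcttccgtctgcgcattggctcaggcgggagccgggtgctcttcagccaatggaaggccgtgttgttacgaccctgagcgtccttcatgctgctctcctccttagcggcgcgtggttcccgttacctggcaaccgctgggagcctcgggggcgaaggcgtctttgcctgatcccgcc
Entpd1 downstream: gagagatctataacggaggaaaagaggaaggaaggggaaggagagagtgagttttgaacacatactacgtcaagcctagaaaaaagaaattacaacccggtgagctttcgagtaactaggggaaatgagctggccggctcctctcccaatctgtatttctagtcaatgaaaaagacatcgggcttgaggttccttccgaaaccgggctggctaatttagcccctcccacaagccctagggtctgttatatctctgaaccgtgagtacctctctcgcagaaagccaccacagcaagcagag

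RefSeq held 8 such windows for 6 of the 7 genes, and none was matched for Adora2a. An AP-1 match began at position -99 from the start of Entpd2 and at -249 from that of P2rx7, and no other of the 8 windows held one. The element reads the same on both strands, and 7.81% of all 32851 mouse promoters of that length hold it. The STAT (GAS) element TTCNNNGAA was found only in the Ada window, at -90, against 8.3% of all promoters. The nuclear receptor half-site AGGTCA, read on both strands, was found only in a second P2rx7 window at chr5:122650133-122650432, against 16.3% of all promoters. The cyclic AMP response element TGACGTCA was in none of the 8, against 1.79%. The upstream Entpd1 window was rich in CpG, with 23 CpG and 64% GC, and the downstream one held 10 CpG at 48.7% GC. The Entpd2 window held 13 CpG and the first P2rx7 window 8, beside a median of 7 over all promoters. These matches describe letters in a window and were not tested against the counts.

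The 6 libraries held 47335507 to 49743505 estimated counts, and the limit left by a count of 0 was 3 counts, or 0.0586 to 0.0676 CPM (counts relative to the scaled library total). Il17a itself read 160, 211 and 108 CPM in wild-type cultures, but 1.11, 0 and 0.0202 CPM where it was knocked out, as the labels say. Libraries of the same replicate number deviated together, so they are treated below as pairs 1 to 3 (pair 1 is knockout 1 with wild-type 1). What the number stands for is not given, and where replicates share animals or cultures the p-values measure that spread only. In sex-linked RNA the members of pairs 1 and 2 differed: Xist reached 567 and 622 CPM in wild-type 1 and 2, 2.58 and 0 CPM in knockout 1 and 2, and 663 and 626 CPM in wild-type 3 and knockout 3. In those 2 pairs the genotype and the sex-linked RNA cannot be told apart. The number 1 libraries stood apart in Cd8a, which read 257 CPM for wild-type 1, 425 CPM for knockout 1 and 33.7 to 66 CPM elsewhere. The defining helper T cell markers were present throughout, with Cd4 at 246 to 633 CPM, although Cd5, which restrains T cell receptor signals, was at 311 to 344 CPM for the wild-type and 193 to 234 CPM for the knockout (paired DESeq2 log2 change -0.56, adjusted p = 0.00235). Markers of B cells were present too, their 10 genes summing to 333 to 776 CPM in wild-type and 512 to 1463.3 CPM in knockout libraries.

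Between the genotypes, P2rx7 was at 0.506 of its wild-type level in the knockout and the scarce Entpd2 at 0.123, whereas Nt5e, Dpp4 and Adora2a had almost equal means. The knockout and wild-type ranges of CPM did not overlap for 3 of the 7 genes (Entpd1, Entpd2 and P2rx7), each lower in the knockout, and 3.13% of all tested genes were lower in this way. None of the 7 was higher without overlap, which 3.01% of all genes were, and 6.14% of genes did not overlap in either direction. The same 3 genes were lower in the knockout in all 3 pairs, as 16.7% of all tested genes were. edgeR's quasi-likelihood test without the block called 0 of the 7 and 0% of all 15121 genes at an adjusted p of 0.05, also with the replicate number as a block. At an unadjusted p of 0.05, edgeR without the block counted 2 of the 7 (Entpd2 and P2rx7) and 1.67% of all genes, and with the block the same 2 and 9.73%. DESeq2 with the replicate number as a block called 2 of the 7, both lower, and 2.52% of all genes, of which 1.5% were lower and 1.02% higher; without the block DESeq2 called 0 of the 7 and 0.086% of all genes. Entpd2 reached the test through its wild-type counts alone. Its place in each of these counts was therefore partly built in: no overlap, lower in all 3 pairs, unadjusted p and DESeq2 call. limma-voom called 0 of the 7, with and without the block. With all libraries, edgeR and limma-voom did not call the knocked-out Il17a either. Its adjusted p with the block was 0.217 in edgeR and 0.148 in limma-voom. A gene that these tools did not call is therefore not shown to be unchanged. The words rose and fell are used below for calls of the paired DESeq2 fit alone, which was the most permissive of the blocked fits: on simulated counts it made more false calls than edgeR or limma-voom with the block, and more than its threshold allows. The median log2 change of the 7 was -0.05 in edgeR and -0.13 in paired DESeq2, beside 0.0132 and 0.00365 over all tested genes.

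**Figure D1:**
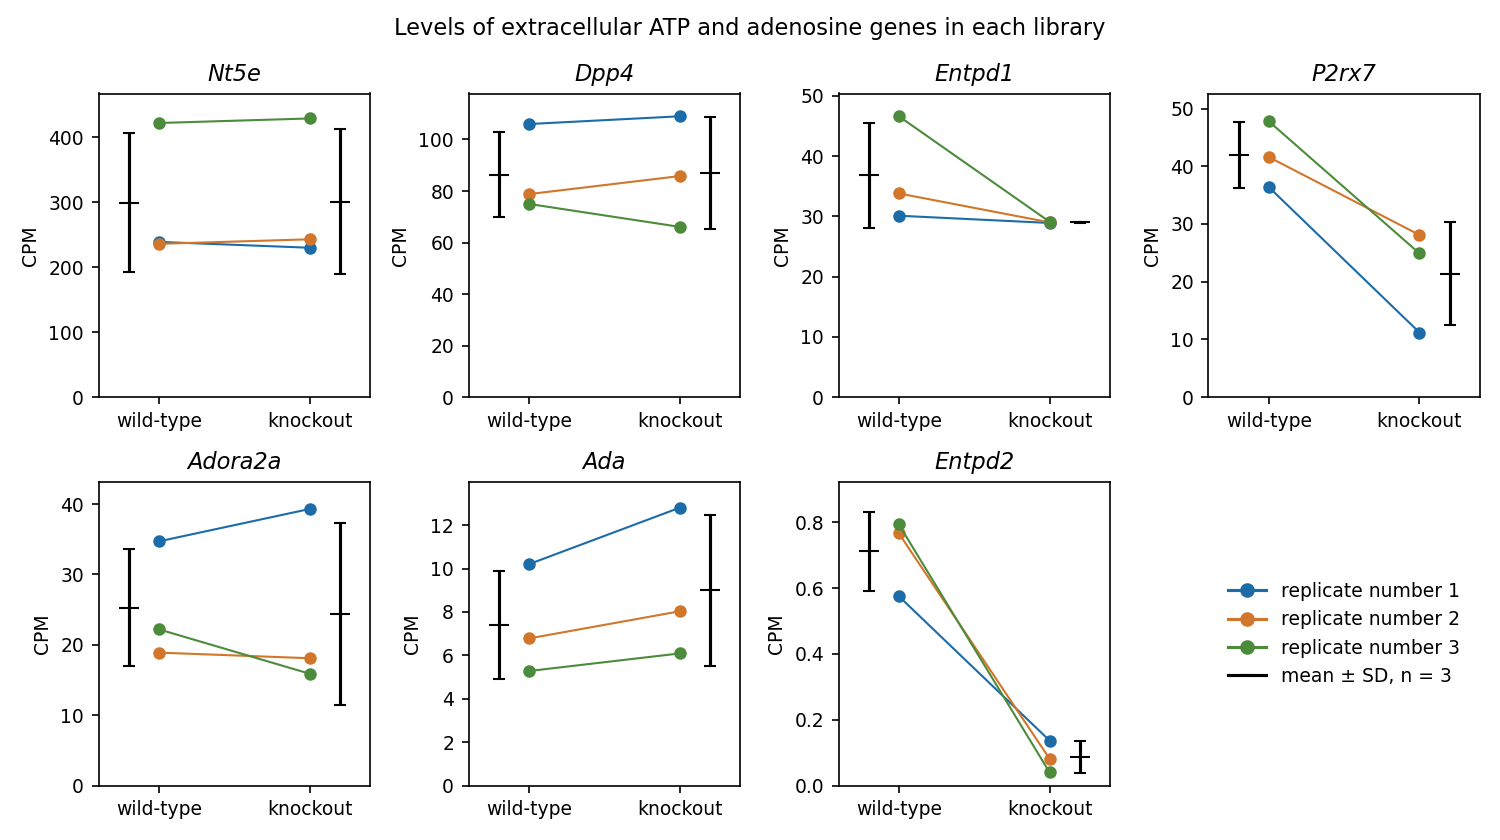
Level of each gene in CPM (linear axis from 0, scaled per gene) in the 3 wild-type and 3 knockout libraries, with lines joining libraries of the same replicate number and black marks for the mean ± SD of each genotype. The knockout points of P2rx7 and Entpd2 lie below every wild-type point, the 3 knockout points of Entpd1 sit together at 28.9 to 29.1 CPM, and number 3 is highest for Nt5e, and number 1 for Dpp4, Adora2a and Ada, in both genotypes.

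Levels can be compared between the genes only per length, so each gene's CPM was divided by the length in kilobases of its most counted transcript. On that scale Nt5e led with a mean over the 6 libraries of 83.8 (range 64.2 to 120). Dpp4 followed at 16.5 (12.5 to 20.7), Entpd1 at 13.7 (12 to 19.4), Adora2a at 9.81 (6.27 to 15.5), P2rx7 at 6.41 (2.27 to 9.69) and Ada at 4.86 (3.13 to 7.61). Entpd2 was last at 0.206 (0.0209 to 0.41). Only Nt5e and Entpd2 stood clear of their neighbours in this order. The ranges of neighbours from Dpp4 down to Ada overlapped, so the order of such neighbours is not separated from the spread over libraries. Dpp4 and Entpd1 were nevertheless above P2rx7 and Ada in every library.

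Entpd1 (ENSMUSG00000048120, chromosome 19, 40612366 to 40741602, plus strand) encodes CD39, which starts the breakdown of ATP at the T cell surface. It stood at 30.1, 33.8 and 46.6 CPM in wild-type 1, 2 and 3 and at 28.9, 29 and 29.1 CPM in knockout 1, 2 and 3. The knockout libraries were nearly equal and lay just below the lowest wild-type library, and wild-type 3 was the highest. The means were 36.8 ± 8.69 CPM (SD, n = 3) and 29 ± 0.0873 CPM (SD, n = 3). The log2 change was -0.34 ± 0.18 (SE) in edgeR and -0.33 ± 0.18 (SE) in paired DESeq2, where the adjusted p was 0.497 and the 95% interval ran from -0.68 to 0.02. Without wild-type 3 the edgeR change was -0.15, so that library carries more of the difference than any other. Pair by pair, the log2 ratio of CPM + 0.5 was -0.06, -0.22 and -0.67.

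CD39 transcripts began mainly at the upstream of the promoters printed above. Entpd1-003, which starts at 40612397 and encodes 539 codons, held 70.3% of the gene's counts (57.5% to 78.1% by library). Its counts were 1145.5, 1155.4 and 1284.1 in the wild-type and 1115.3, 1071.8 and 937 in the knockout libraries. Entpd1-001, which starts at 40659770 and encodes 510 codons, held 23% (20% to 24.8%), with 313, 300 and 554 counts against 355, 347 and 328. The high value of wild-type 3 came with 361 counts of Entpd1-005, a transcript annotated for nonsense-mediated decay, which had 99.5 counts in knockout 3 and at most 10.7 in the other 4 libraries. The split of reads between transcripts is itself an estimate, so these counts are given as a description. In wild-type 3 a processed pseudogene inside the gene, Gm8783, was assigned 76.9 counts, and at most 1.63 in any other library.

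Entpd2 (ENSMUSG00000015085, chromosome 2, 25395874 to 25401321, plus strand) encodes an ectonucleotidase that acts mainly on ATP, and it was the scarcest of the 7. It had 27.9, 34.2 and 38.3 estimated counts in the wild-type libraries and 7.34, 3.79 and 2.32 in the knockout libraries. Every knockout library was below every wild-type library, and knockout 3 lay under the 3 counts that a count of 0 allows. In CPM the means were 0.711 ± 0.119 (SD, n = 3) and 0.0863 ± 0.0483 (SD, n = 3). Summed over libraries, 13 rounded counts against 100 gave a CPM ratio of 0.123, with an exact 95% interval of 0.0631 to 0.219 that covers counting error only. By pair, that ratio was 0.238 (0.0878 to 0.558), 0.107 (0.0275 to 0.299) and 0.051 (0.00596 to 0.197). All 3 intervals lay below 1, but for a gene that reached the test through its wild-type counts alone. The ratio of pair 3 rests on 2 rounded knockout counts.

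Entpd2 fell in paired DESeq2 by 3.14 on the log2 scale (SE 0.98, 95% interval -5.06 to -1.22), at an adjusted p of 0.0495. That call sat at the threshold: with DESeq2's default filtering level the adjusted p was 0.0513, and with pair 1, 2 or 3 left out it was 0.377, 0.497 and 1. In edgeR the change was -3.0 ± 0.64 (SE) at an unadjusted p of 0.0024; its adjusted p was 0.9999 without and 0.374 with the block. Entpd2 passed the low-count filter through its wild-type libraries, so some difference between the genotypes was built into its being tested at all. Entpd2-001, of 9 exons and 495 codons, held 96.7% of the counts. A neighbour on the same strand, Npdc1, overlaps the end of Entpd2 at 25399351 to 25401321 and had 229, 139 and 138 counts in the wild-type and 115, 135 and 118 in the knockout libraries. Reads from the overlap could be divided between both genes, and the part of this in the Entpd2 difference was not tested; the Npdc1 change was -0.52 in paired DESeq2 with an adjusted p of 0.7271.

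Nt5e (ENSMUSG00000032420, chromosome 9, 88327609 to 88372089, plus strand) encodes CD73, the step that makes adenosine. Its levels were 239, 236 and 422 CPM in the wild-type and 230, 243 and 429 CPM in the knockout libraries. Number 3 was high and numbers 1 and 2 were low in both genotypes, and the ranges overlapped almost fully. The means were 299 ± 107 CPM and 301 ± 111 CPM (SD, n = 3 each). The paired DESeq2 log2 change was -0.0078 ± 0.10 (SE, adjusted p = 0.996), and its 95% interval ran from -0.20 to 0.19. Without the block, edgeR gave 0.0072 with a larger SE of 0.33. The table held a single Nt5e transcript, of 9 exons and 576 codons.

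Dpp4 (ENSMUSG00000035000, chromosome 2, 62330073 to 62412231, minus strand) encodes CD26, a surface peptidase that anchors adenosine deaminase on human T cells. Such anchoring was not measured in these mouse cells. Dpp4 stood at 106, 78.8 and 75 CPM in the wild-type and at 109, 85.8 and 66.1 CPM in the knockout libraries. Number 1 was highest in both genotypes, and the ranges overlapped. The means were 86.4 ± 16.6 CPM and 87 ± 21.6 CPM (SD, n = 3 each), with a paired DESeq2 log2 change of -0.01 ± 0.13 (SE, adjusted p = 0.9942, 95% interval -0.26 to 0.23). Its full-length transcript Dpp4-001, of 26 exons and 760 codons, held 90.7% of the counts (87.3% to 93.9%). A retained-intron fragment of 288 nt, Dpp4-006, held another 7.42% (5.09% to 10.1%); Dpp4-001 has 5268 nt. It had 437, 347 and 224 counts in the wild-type and 324, 214 and 331 in the knockout libraries, and these ranges overlapped. An antisense gene, Gm13561, had 6.12 to 12.2 counts per library.

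Ada (ENSMUSG00000017697, chromosome 2, 163726584 to 163750239, minus strand) encodes adenosine deaminase and was the only one of the 7 genes that was higher in the knockout in all 3 pairs, which 16.6% of all tested genes were. Its levels were 10.2, 6.78 and 5.28 CPM in the wild-type and 12.8, 8.03 and 6.09 CPM in the knockout libraries. The order of the numbers was alike in both genotypes, with number 1 highest, so the ranges overlapped although each knockout library exceeded its own pair. The log2 ratios were 0.32, 0.23 and 0.19, around means of 7.41 ± 2.5 CPM and 8.99 ± 3.47 CPM (SD, n = 3 each). The difference did not pass in either tool, at 0.28 ± 0.37 (SE) in edgeR and 0.25 ± 0.21 (SE, adjusted p = 0.809, 95% interval -0.16 to 0.67) in paired DESeq2. Without knockout 1, edgeR gave -0.08. Nearly all Ada counts (99.7%) were in Ada-001, of 12 exons and 352 codons.

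Adora2a (ENSMUSG00000020178, chromosome 10, 75316943 to 75334788, plus strand) encodes the adenosine receptor that raises cyclic AMP in T cells. It stood at 34.7, 18.9 and 22.2 CPM in the wild-type and at 39.3, 18.1 and 15.9 CPM in the knockout libraries. Number 1 was highest in both genotypes, and the 3 pairs went in different directions, at log2 ratios of 0.18, -0.06 and -0.47. The means were 25.3 ± 8.32 CPM and 24.4 ± 12.9 CPM (SD, n = 3 each). Paired DESeq2 put the change at -0.13 ± 0.19 (SE, adjusted p = 0.934, 95% interval -0.50 to 0.24).

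P2rx7 (ENSMUSG00000029468, chromosome 5, 122643911 to 122691432, plus strand) encodes P2X7, an ion channel that opens at high extracellular ATP and can drive T cells into death. It stood at 36.4, 41.6 and 47.8 CPM in wild-type 1, 2 and 3 and at 11.2, 28.1 and 24.9 CPM in knockout 1, 2 and 3. Every knockout library was below every wild-type library, and knockout 1 was far below the other two knockout libraries. The means were 41.9 ± 5.71 CPM and 21.4 ± 8.96 CPM (SD, n = 3 each). In paired DESeq2, P2rx7 fell by 1.08 on the log2 scale (SE 0.23, 95% interval -1.53 to -0.62), at an adjusted p of 0.000594. edgeR gave -0.97 ± 0.33 (SE, adjusted p = 0.9999) without and -1.06 ± 0.22 (SE, adjusted p = 0.366) with the block, and neither passed. By pair the log2 ratio was -1.66, -0.56 and -0.93, so pair 1 was the largest, and the CPM ratio was 0.308 (exact 95% interval 0.279 to 0.338), 0.674 (0.628 to 0.724) and 0.52 (0.485 to 0.557). These exact intervals cover counting error only, not the spread between cultures. With pair 1 left out, the paired DESeq2 change was -0.75 at an adjusted p of 0.0433, and with pair 2 or pair 3 left out it was -1.34 at 0.00018 and -1.14 at 0.0248, so the call held in each case.

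In a culture sequenced in bulk, fewer cells of a type and less RNA per cell cannot be told apart, and several markers moved beside P2rx7. Of 8 regulatory T cell markers, 4 fell in paired DESeq2 (Foxp3, Lrrc32, Gpr83 and Tnfrsf18) and Itgae rose. The 8 summed to 2763.2 to 4770.9 CPM in wild-type and 2457.7 to 4310.8 CPM in knockout libraries. Most of that sum was Il2ra (1114.1 to 2627.0 CPM) and Ctla4 (796 to 1379.8 CPM), and neither passed. The sum therefore mainly follows Il2ra and Ctla4, not the markers that fell. Foxp3, the factor that defines regulatory T cells, stood at 14.7, 48.2 and 30.8 CPM against 11.3, 25.2 and 14.8 CPM. Knockout 1, where P2rx7 was lowest, also had the lowest Cd4, at 246 CPM, and the highest Cd8a, at 425 CPM. The other helper T cell markers were mixed in that library. Cd5 was lowest there, at 193 CPM, but Cd3e was highest, at 222 CPM. Cd3d stood there at 590 CPM, within 392 to 624 CPM over all libraries. Of 10 B cell markers 5 rose and 0 fell, and of 7 tested myeloid markers 4 rose and 0 fell, where 1.02% of all tested genes rose and 1.5% fell. Further, 2 of 6 Th17, 2 of 5 NK and 1 of 2 CD8 markers (Cd8a) rose, and 1 of 2 platelet markers and 1 of 4 helper T cell markers (Cd5) fell. None of 5 naive T cell, 4 tested dendritic and 3 tested endothelial and stromal markers passed. The myeloid list summed to 79.1 to 243 CPM in wild-type and 118 to 374 CPM in knockout libraries, and Adgre1, one of its 9 genes, was not matched. The part of these markers and of sex-linked RNA in the P2rx7 difference was not tested; within pair 3, whose libraries had like Xist levels, P2rx7 was 0.52 times the wild-type level.

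Most P2rx7 reads were assigned to the longest of its transcripts, and so was most of the difference. Every listed P2rx7 transcript starts between 122643911 and 122644009, and none in the second P2rx7 window (chr5:122650133-122650432). RNA from that second start could therefore not be counted apart. P2rx7-001, of 13 exons and 595 codons, held 80.5% of the gene's counts. It had 1538.5, 1454.6 and 1878.1 counts in the wild-type and 385, 1073.2 and 987 in the knockout libraries, which did not overlap. P2rx7-002, which shares the start at 122643911 but encodes 431 codons, held 17.3%, with 212, 352 and 363 counts against 178, 290 and 172. Its ranges overlapped. Tested transcript by transcript, with the block, DESeq2 gave -1.19 ± 0.37 (SE, adjusted p = 0.0883) for P2rx7-001 and -0.61 (adjusted p = 0.761) for P2rx7-002, and neither passed. The share of P2rx7-001 was 67.1% in knockout 1 and 78.1% to 86.7% in the other 5 libraries. P2rx7-003 and P2rx7-004 together held little, at 0.832% and 1.39% of the counts.

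**Figure D2:**
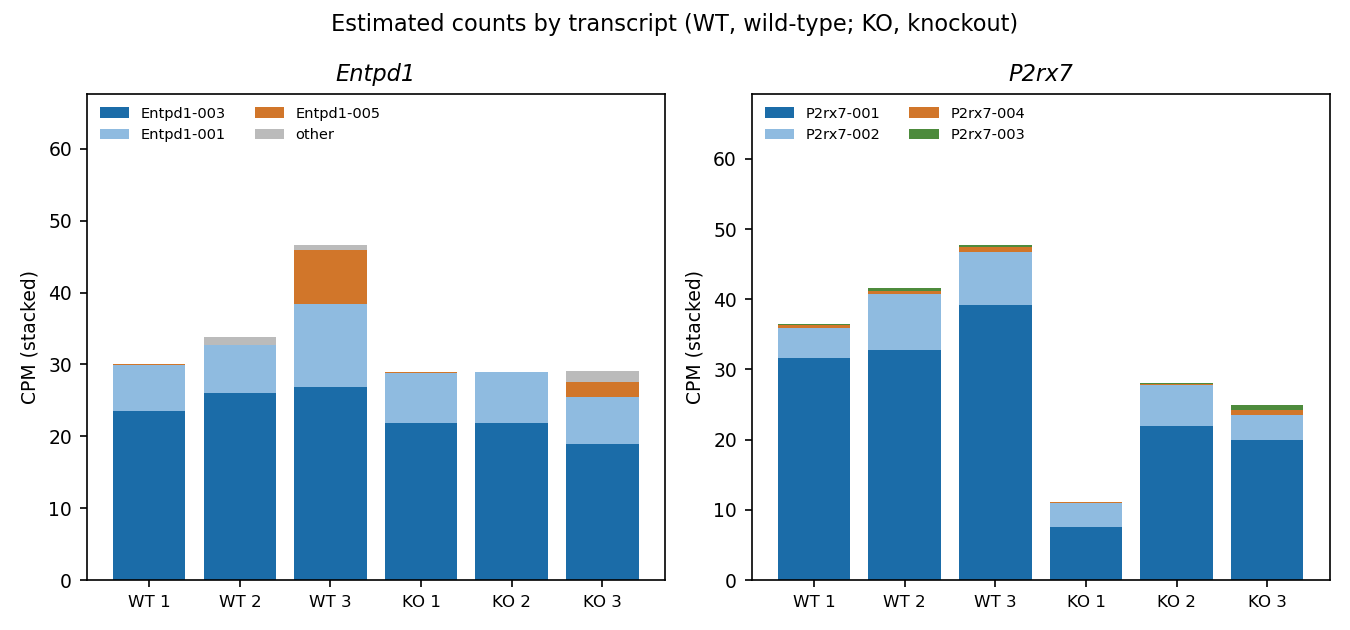
Stacked CPM of each transcript of Entpd1 (left) and P2rx7 (right) in the 6 libraries, on a linear axis from 0; WT is wild-type, KO is knockout, and other is the sum of the remaining Entpd1 transcripts. The P2rx7-001 block is shorter in each knockout bar than in any wild-type bar, and the Entpd1-005 block appears chiefly in wild-type 3 (361 counts) and knockout 3 (99.5 counts).

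**Figure D3:**
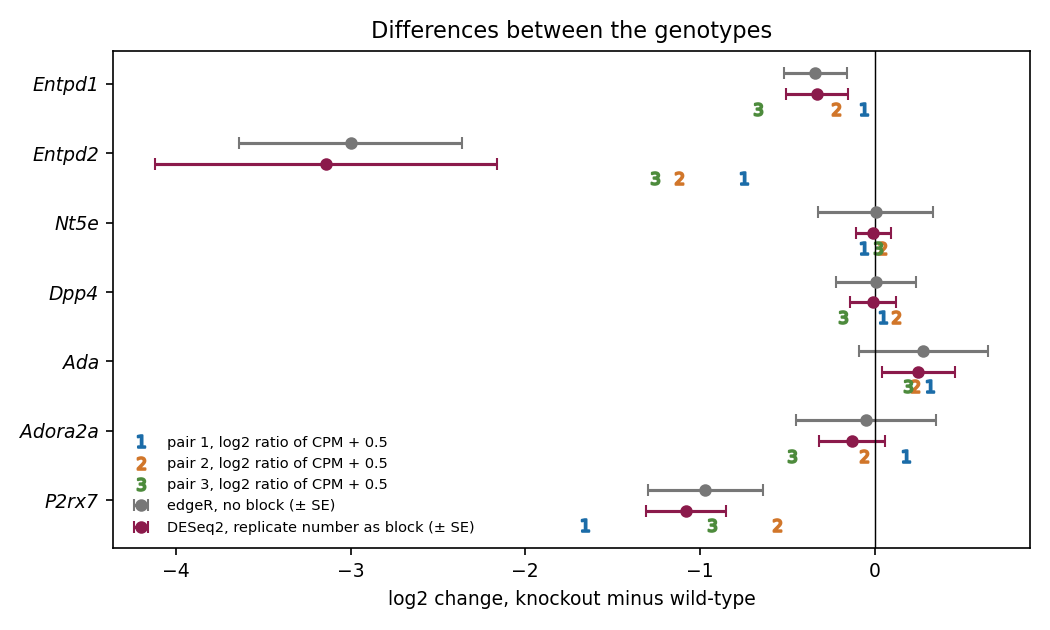
Log2 change of the 7 genes, knockout minus wild-type, in edgeR without a block (grey) and in DESeq2 with the replicate number as a block (red), each ± SE over 6 libraries, with the ratio of each pair shown by its number. The bars of Entpd2, P2rx7 and Entpd1 lie left of 0 in both fits, although Entpd1 was called in neither. The pair ratios of Entpd2 lie nearer 0 than its fitted change because 0.5 CPM was added to levels below 1 CPM.

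Of 56 other genes of the pathway, in 7 lists, 46 were tested. Of these edgeR called 0 (1 at an unadjusted p of 0.05), and paired DESeq2 called 1 higher (Bst1) and 1 lower (Slc17a9), so 44 did not pass, 4 of them with no adjusted p. Over all tested genes the called share was 2.52%, 1.02% higher and 1.5% lower, so 2 of 46 is near it. Their median log2 change was 0.05 in edgeR and 0.04 in paired DESeq2. In the list of 10 other ectoenzymes, 7 were tested and Bst1 alone rose. Bst1, or CD157, splits NAD outside the cell and stood at 37.6, 11.1 and 10.6 CPM in the wild-type and at 74, 17.2 and 16.2 CPM in the knockout libraries. Number 1 was high in both genotypes, so the ranges overlapped, although each knockout library exceeded its pair. Paired DESeq2 put the change at 0.73 ± 0.16 (SE, adjusted p = 0.000783). It did not pass with pair 1 left out (0.62, adjusted p = 0.573) or pair 3 left out (0.80, adjusted p = 0.0868), and edgeR with the block gave an adjusted p of 0.271. Without knockout 1, edgeR gave -0.25 for Bst1. The number 1 libraries were also the highest in Cd8a, whose part in the Bst1 values was not tested.

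Among 4 intracellular relatives of CD39, none passed. Entpd6 ranged from 23.6 to 24.6 CPM in the wild-type libraries and from 21.5 to 24.6 CPM in the others. Entpd4 ranged from 0.158 to 53.4 CPM over the wild-type libraries, and its direction changed with the fit; the mouse genome holds a near-identical copy of this gene, so its counts are uncertain. Of the other adenosine receptors Adora1 was listed at 0 in all 6 libraries. Adora2b stood at 3.2, 7.89 and 7.41 CPM against 3.18, 6.24 and 6.63 CPM, and Adora3 at 2.01, 4.1 and 2.07 CPM against 0.176, 3.62 and 1.7 CPM; neither passed, and for both the ranges overlapped.

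P2rx4, another ATP-gated channel and the only other P2X gene above 1 CPM, measured 47.5, 48.7 and 46.6 CPM in the wild-type and 36.2, 42.2 and 49.3 CPM in the knockout libraries. Its ranges overlapped, and its paired DESeq2 change was -0.18 (adjusted p = 0.799). It was lowest in knockout 1, as P2rx7 was. Whether P2rx7 and P2rx4 differed in their change was not tested. The other P2X genes stayed under 1 CPM in every library, and of the 7 P2Y receptors 5 were tested and none passed. P2ry14 was the most abundant of these per length, at 0.522 to 3.45 CPM, and P2ry1 ranged from 0.0835 to 0.9 CPM.

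In the list of 13 genes of ATP release, nucleoside transport and adenosine metabolism, 12 were tested and Slc17a9 fell. Slc17a9 encodes the vesicular nucleotide transporter, which loads ATP into vesicles for release. It stood at 83.1, 123 and 86.6 CPM in the wild-type and at 70.2, 64.8 and 54.6 CPM in the knockout libraries, which did not overlap. The means were 97.7 ± 22.3 CPM and 63.2 ± 7.9 CPM (SD, n = 3 each). Paired DESeq2 gave -0.62 ± 0.16 (SE, adjusted p = 0.00938). It passed with pair 1 left out (-0.79, adjusted p = 0.00162) but not with pair 2 (-0.47, adjusted p = 0.244) or pair 3 (-0.60, adjusted p = 0.386), and edgeR with the block gave an adjusted p of 0.387. Gja1, the connexin 43 channel, passed only with pair 2 left out (-1.14, DESeq2 adjusted p = 3.07e-06). With all pairs its change was -0.71 at an adjusted p of 0.144, from 42.9, 61.6 and 151 CPM against 16.5, 68.9 and 82.4 CPM.

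Below Adora2a, none of 13 genes of the cyclic AMP branch passed, with a median log2 change of 0.02 in edgeR and 0.01 in paired DESeq2. Gnas, the stimulatory G protein subunit that couples the receptor to adenylyl cyclase, was at 724 ± 63.8 CPM and 725 ± 111 CPM (SD, n = 3 each). Pde7a, a phosphodiesterase that breaks down cyclic AMP, had ranges that did not overlap, at 111, 124 and 142 CPM against 109, 99.4 and 106 CPM. Its paired DESeq2 change was -0.27 at an adjusted p of 0.394.

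**Figure D4:**
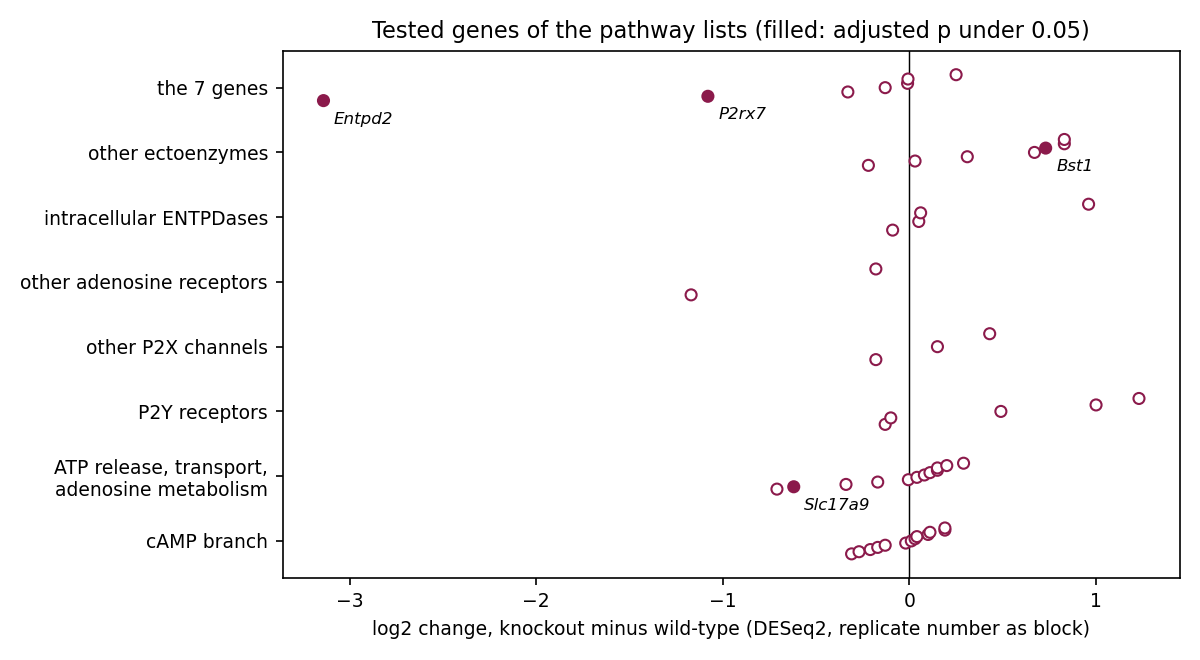
Paired DESeq2 log2 change, knockout minus wild-type, of every tested gene in the 7 pathway lists and of the 7 genes themselves, one point per gene, filled where the adjusted p was under 0.05. The filled points are Entpd2, P2rx7 and Slc17a9, lower in the knockout, and Bst1, higher.

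The genes with the most similar pattern over the 6 libraries were found among genes with a mean of at least 10 CPM, by the root mean square difference of log2 levels after centring. For P2rx7 the closest was Stab2, at 0.245, with 66.2, 70.7 and 65.8 CPM in the wild-type and 21.5, 59.2 and 59.5 CPM in the knockout libraries; it shared the low value in knockout 1. For Nt5e they were Wdr31 (0.046) and Clasp1 (0.060), and for Dpp4 Cep250 (0.037) and Adcy7 (0.055). Adora2a was closest to Tmem120b (0.076). Entpd1 was closest to Zc3h6 (0.070) and Ada to A630001G21Rik (0.047). For Entpd2, under 1 CPM in every library, the 0.5 CPM added before the logarithm flattens the pattern, so no gene is named for it. The median over all genes compared was 0.31 to 0.70, depending on the member.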

How the data were processed

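Stranded mRNA libraries of 6 cultures were analysed, 3 per genotype. Per the file headers, the authors' values are estimated counts per transcript and library. The deposited GC fraction of each transcript entered no test. The submitters' processing notes name Bowtie2 2.1.0, eXpress 1.3.1 and GRCm38. Which annotation release and settings were used is not given in the sources used here. The authors' estimated counts were summed over transcripts of a gene ID and rounded. All per-sample columns were used. CPM used TMM-scaled library sizes, and the levels per kilobase used the most counted transcript, because short transcripts inflate a sum over isoforms (TPM had been planned).

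Knockout was compared with wild-type by edgeR 4.0.16's quasi-likelihood test with filterByExpr (minimum count 10), no block, Benjamini-Hochberg adjustment over 15121 genes and a threshold of 0.05. DESeq2 1.42.0 and limma 3.58.1 (R 4.3.3) were alternatives, as were the block, the scaling, the filter, single transcripts and each library or pair left out. Pairing by replicate number was read from the data: libraries of the same number correlated at 0.483, 0.328 and 0.491 in their deviations from the genotype means, all above the required 0.1, and others at -0.365 to -0.125. Deviations cancel out within a genotype, so the negative values of the others are partly built in. In the paired DESeq2 fit an adjusted p left as NA was not counted. Pair ratios are log2 of CPM + 0.5. The exact intervals of CPM ratios and the floors cover counting error only. The intervals of paired DESeq2 changes come from its SE, which also includes the fitted spread between libraries. edgeR's test reports no SE, so each SE given for edgeR is the absolute log2 change divided by the square root of its F statistic. The gene-level fits of the 3 tools, with and without the block, were tested on simulated data, and the other settings were not. The simulated counts were drawn with the spread fitted by edgeR, which may favour edgeR. In that single draw the false share of calls was above the threshold for each fit tested. It was highest for DESeq2, with and without the block, and lowest for edgeR without the block, which made few calls. That edgeR fit recovered few of the 2-fold changes. Tables were made in Python 3.11.15 with pandas 2.3.3 and scipy 1.17.1, and plots with matplotlib 3.10.9. Exon and codon numbers come from GENCODE and promoters from RefSeq, both on GRCm38.

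The genes, pathway lists and motifs were chosen with earlier results of these data known. All 7 genes are named. Of the other lists, each gene past the threshold in any fit was named, otherwise the gene with the smallest unadjusted p and the gene with the highest level per length; a few further genes were named after their values were seen. Results for a few marker genes and similar genes are not reported here.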

Additional observations from a re-analysis of the deposited data

How the results depend on the processing

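Of the 7 genes, edgeR called 0, and DESeq2 with the replicate block called 2, or 1 at its default filtering level and 0 on transcripts; limma-voom called 0 with the block (adjusted p 0.236 for P2rx7 and 0.267 for Entpd2) and without it; leaving out 1 library or pair gave 0 to 1. Over all genes the counts were 0 in edgeR, 13 in DESeq2 without the block, 381 with the replicate block, 374 at its default filtering level and 411 on transcripts, and 0 to 264 with a library or pair left out (edgeR called 1 without knockout 1). Of the 381 genes, 108, 148 and 96 were among the 176, 264 and 149 called without pair 1, 2 and 3. The default filtering level and the paired fit on transcripts were chosen after seeing the data. The direction held in all 21 alternatives for P2rx7 (-1.34 to -0.68), Entpd2 (-3.73 to -2.65) and Entpd1 (-0.47 to -0.15). Near 0 it turned. Nt5e was -0.0042 in DESeq2 and with RLE scaling, -0.0078 in DESeq2 with the replicate block at both filtering levels, and -0.36 to 0.33 with a library or pair left out. Dpp4 was -0.0013 in DESeq2 and with RLE scaling, -0.0031 in limma-voom, with the replicate block -0.0028 (edgeR), -0.01 (DESeq2) and -0.0029 (limma-voom), -0.02 without the number 1 libraries, and -0.20 to 0.18 with a library or pair left out (-0.05 without wild-type 2, -0.0044 without knockout 2). Adora2a was 0.01 with library totals only and -0.58 to 0.25 with a library or pair left out (0.25 without wild-type 1, 0.10 and 0.16 without knockout 2 and 3). Gnas was -0.0089 in DESeq2 and with RLE scaling, -0.0054 in limma-voom, with the block -0.0053 (edgeR), -0.02 (DESeq2) and -0.0073 (limma-voom), -0.02 and -0.04 on transcripts in edgeR and in DESeq2 with the block, -0.10 without the number 1 libraries, and -0.11 to 0.09 with a library or pair left out (-0.07 without wild-type 3). Entpd4 was 1.5 in limma-voom, with the block 0.67 in edgeR and 0.96 in DESeq2, 0.98 on transcripts with the block, and -1.10 to 2.73 with a library or pair left out (1.18 without wild-type 3, 2.54 without pair 1). With a library or pair left out, Ada was -0.08 to 0.57, Bst1 -0.25 to 1.71, Adora2b -0.51 to 0.05 (0.02 without wild-type 2), P2ry1 -0.13 to 2.17, P2ry14 -0.58 to 1.62 (-0.18 and -0.23 without wild-type 1 and 3) and Gja1 -1.14 to 0.09. The causes were not tested. Depth limits Entpd2, with 2.32 to 38.3 counts per library.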
